A study of Mus musculus with 6 samples.

Results

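Kainate and delta receptors are branches of the ionotropic glutamate receptor family, and their subunits on this array were Grik1, Grik2, Grik3, Grik4 and Grik5 for kainate receptors and Grid1 for delta receptors. Members were taken by symbol: every probe set (several short probes read out jointly for a transcript) annotated to exactly 1 of these 6 genes was kept, with no filter on dim signals. This gave 10 of the 45101 probe sets in the table. Grik1, Grik2, Grik3 and Grid1 had 2 probe sets each, called the brighter and the dimmer below, and Grik4 and Grik5 had 1 each.

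Kainate receptors are tetrameric cation channels opened by glutamate. The subunits GluK1, GluK2 and GluK3, encoded by Grik1, Grik2 and Grik3, can form channels on their own, whereas GluK4 and GluK5, encoded by Grik4 and Grik5, need one of them as a partner and raise the affinity for agonist. These channels lie on both sides of the synapse, tune transmitter release and carry slow excitatory currents, among other places at the mossy fibre synapses of the hippocampus. GluD1, encoded by Grid1, belongs to the same family by sequence but acts mainly as a synapse organiser that binds cerebellins and, through them, neurexins.

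Whole-brain total RNA came from 6 female littermates aged 123 days, 1 Affymetrix Mouse Genome 430 2.0 array per mouse. The knockout group held 4 mice with both alleles of the melanotransferrin gene disrupted (MTf -/-, strain C57BL/6 - Lucy, a suffix left unexplained there). The wild-type group held 2 mice (MTf +/+, strain C57BL/6). Numbers 1 to 4 and 1 to 2 follow the order of deposit and only name a mouse. No treatment, batch or pairing is labelled, and the labels do not say which part of the gene was removed. Values are the deposited linear signal, and a fold change is the knockout minus wild-type difference of log2(signal + 49.6), which understates the change of dim probe sets. Its test was the moderated test of limma, with p-values adjusted by Benjamini-Hochberg over 45037 probe sets.

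Several facts of the arrays bear on the receptor values. The probe set of Meltf, the targeted gene, read 80.7 to 155.9 in the knockout and 146.5 and 228.7 in wild type, so the groups overlapped and the labels were not checked by it. All 6 pan-neuronal markers were bright, at 4479.3 or more on every array. Knockout 2 had little cerebellar signal: the summed signal of the 6 measured granule cell markers was 9513 there, 43797 to 61974 in the other knockouts and 56893 and 62167 in the wild types. For the 5 measured Purkinje cell markers the sum was 26053 there, 82890 to 109789 in the other knockouts and 88804 and 104775 in the wild types. None of these markers was at 0. Wild type 1 was the dimmest array, with a median signal of 192.5 against 238.2 to 278.3 elsewhere. Pituitary hormone signal stood out on knockout 3, with a sum over 3 genes of 9880 against 146.6 to 825.4 on the other arrays.

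No member differed between the genotypes by the test. In limma 0 of the 10 probe sets passed an adjusted p of 0.05, as did 0 of all 45037 (0% called in either direction), and 1 of the 10 had an unadjusted p below 0.05, where 6.76% of all probe sets did. The fold change was above 0 for 6 of the 10 and below 0 for 4, with a median of 0.083 on the log2 scale against 0.078 over all probe sets. All 4 knockouts lay above both wild types on 2 of the 10, Grik1's brighter and Grik3's dimmer probe set, where 11.3% of all probe sets did so. None of the 10 had all knockouts below both wild types, which 4.81% of all probe sets did.

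The brightest probe set of each gene gave an order of signals that ran from Grid1 and Grik3 at the top to Grik4 at the bottom. Median signals over the 6 arrays were 1672 for Grid1, 1565 for Grik3, 864.5 for Grik2, 687.4 for Grik1, 657.7 for Grik5 and 363.5 for Grik4. Grid1 lay above Grik3 on 5 of 6 arrays and Grik1 above Grik5 on 4 of 6, so these neighbours did not keep their order. Grik3 above Grik2, Grik2 above Grik1 and Grik5 above Grik4 held on 6 of 6 arrays each. Probes bind their targets with different strength, and this is an order of signals, not of transcript numbers. In terms of the whole array, these 6 probe sets had mean levels at the 58.4 to 83.1 percentile.

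**Figure D1:**
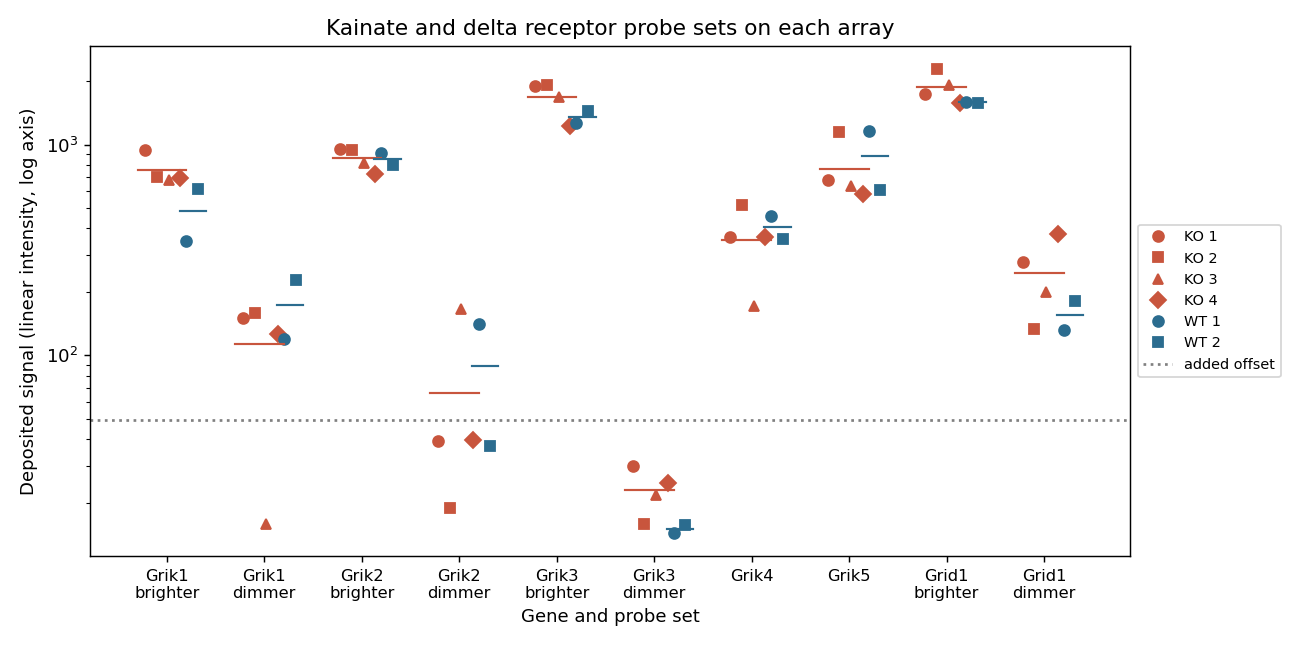
Deposited signal (log axis) of the 10 kainate and delta receptor probe sets on each of the 6 arrays, with knockout mice in red, wild-type mice in blue, short horizontal lines for the group means and a dotted line at the added offset of 49.6. The 4 knockouts lie above both wild types for the brighter Grik1 and the dimmer Grik3 probe set, and the latter lies wholly below the offset.

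Grik1, whose GluK1 subunit is prominent in interneurons and sensory neurons, had the largest fold change of the 10. Its brighter probe set, 1427676_a_at, read 939, 703, 681.4 and 693.5 in the knockouts, in order, against 349.7 and 619 in the wild types. The groups did not overlap, but wild type 2 lay within 62.4 signal units of the lowest knockout. Wild type 1, the array with the lowest median signal, lay far below all others. Group means were 754.2 ± 123.5 (SD, n = 4) and 484.4 ± 190.4 (SD, n = 2), a 1.54-fold difference. The log2 fold change was 0.63 ± 0.25 (SE), and its 95% interval ran from 0.077 to 1.17 (limma unadjusted p = 0.0293, adjusted p = 0.738, exact permutation p = 0.0667, the smallest that the 15 splits of 4 against 2 allow, 2-sided). It was 0.25 without wild type 1, with an unadjusted limma p of 0.333, and 0.998 without wild type 2, with 0.00424. The share of the low median signal of wild type 1 in this difference was not tested. The log2 fold change was 0.54 after quantile normalization and 0.41 after centring each array on its median.

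The dimmer Grik1 probe set, 1439987_at, went the other way. It read 150.6, 159.7, 15.8 and 126.1 in the knockouts and 119.8 and 227.3 in the wild types. Knockout 3 was far below the other 5 arrays, and the remaining values overlapped. Its log2 fold change was -0.55 ± 0.52 (SE; limma adjusted p = 0.834), and -0.15 without knockout 3. Grik1 lies on chromosome 16, as Meltf does, with 269 protein-coding genes between them in the gene order of GRCm38.p6.

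Grik2 encodes GluK2, a subunit abundant in cerebellar granule cells and hippocampal pyramidal cells. Its brighter probe set, 1457683_at, had the smallest ratio of highest to lowest array of the 10, 1.31, and its dimmer one the second largest, 8.86. The brighter read 948.6, 947, 820.7 and 722.5 in the knockouts and 908.4 and 802.7 in the wild types. Both wild types fell inside the knockout range. Knockout 2, whose cerebellar markers were low, read close to knockout 1, and the part of cerebellar content in the Grik2 values was not tested. Means were 859.7 ± 109.3 (SD, n = 4) and 855.5 ± 74.7 (SD, n = 2), and the 95% confidence interval of the log2 fold change ran from -0.39 to 0.40 around 0.0010 (limma adjusted p = 0.999). It was -0.013 after quantile normalization and -0.21 after median centring.

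On the dimmer Grik2 probe set, 1425790_a_at, 4 arrays read 18.8 to 39.8, below the added offset. The other two, knockout 3 at 166.5 and wild type 1 at 140.7, came from different groups. Its log2 fold change was -0.30 ± 0.51 (SE) with all arrays (limma adjusted p = 0.913) and 0.27 without wild type 1, so its sign rested on that array.

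Grik3 encodes GluK3, a subunit of low glutamate sensitivity found mainly at presynaptic sites. Its brighter probe set, 1440177_at, read 1894.1, 1907.4, 1683.2 and 1230.2 in the knockouts and 1263.2 and 1446.9 in the wild types. The 3 highest arrays were knockouts, and knockout 4 was the lowest of all 6, so the groups overlapped. Means of 1679 ± 316.2 (SD, n = 4) and 1355 ± 129.9 (SD, n = 2) gave a log2 fold change of 0.28 ± 0.19 (SE; limma adjusted p = 0.779). It ranged from 0.19 without wild type 1 to 0.42 without knockout 4, and was 0.29 after quantile normalization and 0.068 after median centring. Grik3's dimmer probe set, 1427709_at, read 30, 15.9, 21.7 and 24.8 against 14.4 and 15.7. Its mean level ranked at the 5.88 percentile of the array, all values were below the offset, and the gap between knockout 2 and wild type 2 was 0.2 signal units. The log2 fold change of 0.17 was 0.039 after quantile normalization and -0.048 after median centring.

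Grik4 and Grik5 encode the high-affinity subunits. Grik5, the widely expressed one, read 676.4, 1152.6, 639 and 583.6 in the knockouts and 1154.8 and 608.7 in the wild types (probe set 1418784_at). Knockout 2 and wild type 1 stood apart at nearly the same level, and the other 4 arrays lay between 583.6 and 676.4. The means, 762.9 ± 262.6 (SD, n = 4) and 881.8 ± 386.1 (SD, n = 2), therefore differed by less than the spread within either group, with a log2 fold change of -0.18 ± 0.31 (SE; limma adjusted p = 0.913). Leaving out wild type 1 turned the value to 0.25, leaving out knockout 2 gave -0.39, and without both it was 0.050. Cerebellar markers were low on knockout 2 but not on wild type 1. The median signal of the array was 238.2 on knockout 2 and 192.5 on wild type 1. The part of cerebellar content or of the array median in the Grik5 values was not tested.

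Grik4, best known from hippocampal CA3 pyramidal cells, had the same pair of arrays as its highest. Its probe set, 1437681_at, read 362.9, 518.3, 172.4 and 364.1 in the knockouts and 457.4 and 356 in the wild types. Knockout 3 was the lowest, and knockouts 1 and 4 and wild type 2 lay between 356 and 364.1. The log2 fold change was -0.24 ± 0.36 (SE), within a 95% interval from -1.06 to 0.57 (limma adjusted p = 0.898), and it was 0.019 without knockout 3. The hippocampus and cortex markers, 6 of 7 measured and none at 0, summed to 20002 on knockout 2, 14628 to 15643 on the other knockouts and 16699 and 14204 on the wild types. Knockout 2 and wild type 1 were the highest by this sum, which its brightest members set. The mean log2 level of the same list, relative to each gene's mean, was 0.28 on knockout 2 but -0.044 on wild type 1 and 0.044 on knockout 1, and Prox1 was lowest on wild type 1. A high sum on knockout 2 was not particular to this list. Knockout 2 also had the highest sum of the striatum, inhibitory neuron, pan-neuronal, astrocyte and microglia markers. It had the lowest sum of the hypothalamus, granule cell and Purkinje cell markers. Its striatum sum was 28938, against 14689 to 24587 on the other arrays. The part of any of these markers in the Grik4 and Grik5 values was not tested.

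Grid1 encodes GluD1, a delta subunit widespread in the forebrain. Its brighter probe set, 1441499_at, read 1743.9, 2280.7, 1922.3 and 1579.1 in the knockouts and 1600.8 and 1575.6 in the wild types. Knockout 4 fell between the wild types and the other 3 knockouts lay above them, with knockout 2 the highest. Means were 1882 ± 300.8 (SD, n = 4) and 1588 ± 17.8 (SD, n = 2), a log2 fold change of 0.22 ± 0.16 (SE; limma adjusted p = 0.790). This was 0.13 without knockout 2, 0.24 after quantile normalization and 0.011 after median centring. Grid1's dimmer probe set, 1421569_at, ordered the arrays differently, with 276.5, 133.8, 200.9 and 375.2 in the knockouts and 131.3 and 181.2 in the wild types. Here knockout 4 was the highest and knockout 2 close to the lowest, and the log2 fold change was 0.47 ± 0.40 (SE; limma adjusted p = 0.817). It was 0.27 without knockout 4, 0.29 without wild type 1 and 0.25 after either other scaling.

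**Figure D2:**
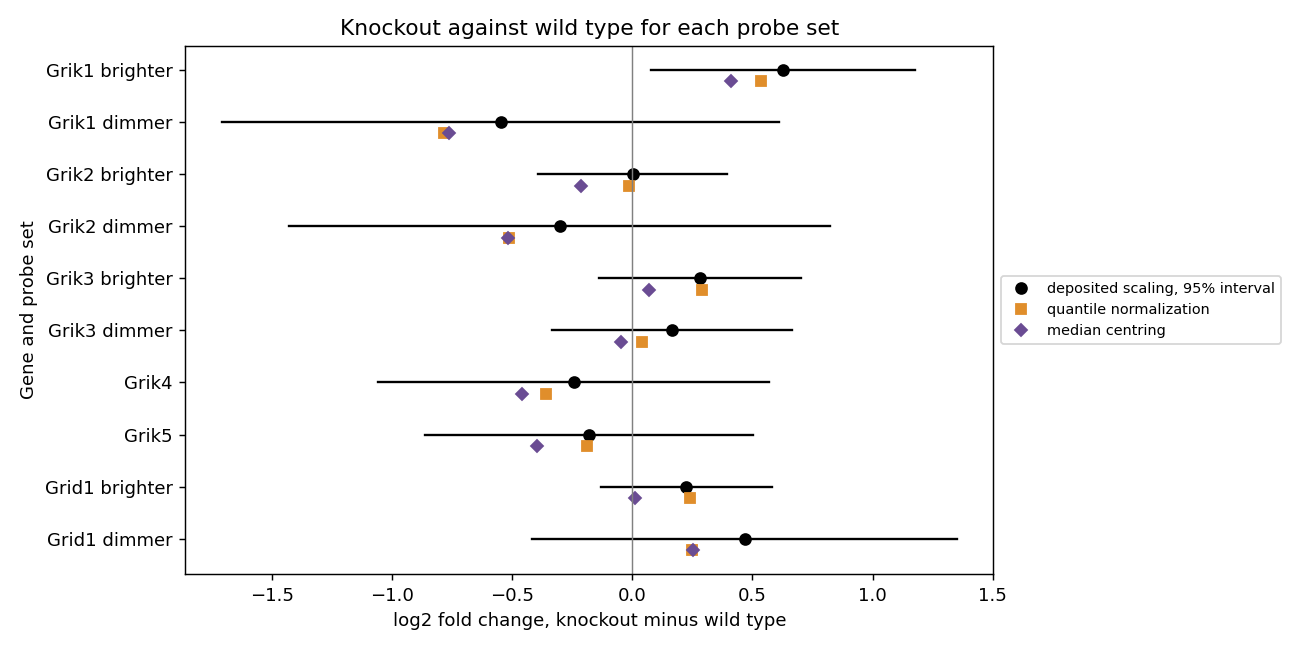
Log2 fold change, knockout minus wild type, of each of the 10 probe sets, as black points with 95% confidence intervals from limma, with the values after quantile normalization (orange squares) and median centring (purple diamonds). The interval of the brighter Grik1 probe set alone excludes 0, from 0.077 to 1.17, and every point moves to the left after median centring.

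Scaling moved the whole array as well as the receptors. Over all probe sets the median log2 fold change was 0.078 with the deposited scaling, -0.0071 after quantile normalization and -0.14 after median centring. The median of the 10 receptor probe sets was 0.083, 0.013 and -0.13 under the same 3 scalings. Median centring lowers every log2 fold change by the same amount, so its values are no separate result on the receptors. Of the 3046 probe sets with an unadjusted p below 0.05, 72.8% were higher in the knockout, and this share was 54.0% of 2665 after quantile normalization and 20.3% of 3943 after median centring. Among the brightest probe sets Grik1, Grik3 and Grid1 stayed above 0 and Grik4 and Grik5 below 0 under all 3 scalings, while Grik2 was at 0.0010, -0.013 and -0.21.

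**Figure D3:**
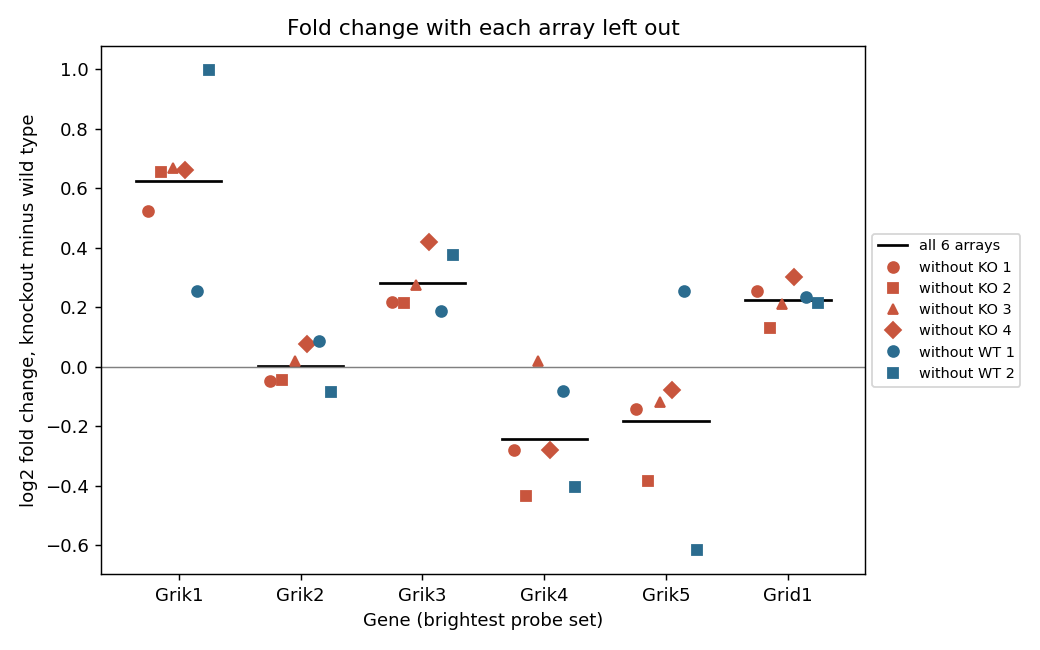
Log2 fold change, knockout minus wild type, of the brightest probe set of each gene with all 6 arrays (black line) and with each array left out in turn (red for a knockout, blue for a wild type). Grik1 falls from 0.63 to 0.25 and Grik5 rises from -0.18 to 0.25 without wild type 1, while Grik3 and Grid1 keep their sign.

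The array by array profile of the brightest probe sets showed where the members parted from each other. Knockout 2 had the highest signal for Grik3, Grik4 and Grid1, knockout 1 for Grik1 and Grik2, and wild type 1 for Grik5, while knockout 4 had the lowest for Grik2, Grik3 and Grik5. Grik1 and Grik4 spanned at least 1 log2 unit over the 6 arrays. The genes nearest to Grik1, by the root mean square difference of log2 values centred on each gene's mean over the 6 arrays among 13299 genes, were Evc at 0.049, the serotonin receptor gene Htr5a at 0.068 and the imprinted noncoding RNA gene Meg3 at 0.083. Each of these had its lowest signal on wild type 1 and its highest on knockout 1, as Grik1 did, which follows from picking them by closeness over these arrays. For Grik4 the nearest was Reck, an inhibitor of matrix metalloproteinases, at 0.14. Next came the transcription factor gene Zeb2 at 0.16 and the CREB coactivator gene Crtc2 at 0.17. Picked in the same way, each was lowest on knockout 3, as Grik4 was.

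**Figure D4:**
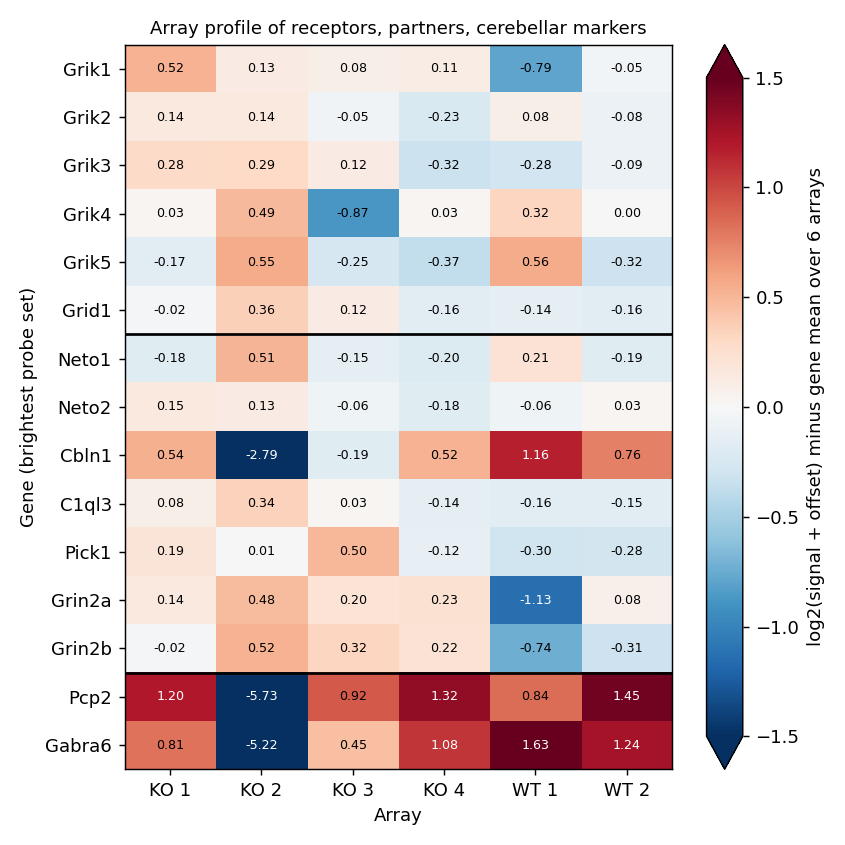
Log2(signal + 49.6) minus each gene's mean over the 6 arrays, for the 6 receptor genes, 7 partners or other glutamate receptors and the cerebellar markers Pcp2 and Gabra6, 1 column per array, with colours capped at 1.5 either way. Grik4, Grik5 and Neto1 are highest on knockout 2 and wild type 1, and Cbln1, Pcp2 and Gabra6 are far below their means on knockout 2.

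Partners of these receptors were read from a list of 23 genes, of which 21 were measured by a probe set with 1 symbol. By the brightest probe set 8 were higher and 13 lower in the knockout, 0 passed in limma, 1 had an unadjusted p below 0.05 and the median log2 fold change was -0.098, against 0.078 over all probe sets. After median centring these medians were -0.31 and -0.14. The 1 partner with an unadjusted limma p below 0.05 was higher in the knockout. Over all probe sets 6.76% were below 0.05, and 72.8% of these were higher. After median centring 3 of the 21 partners were below 0.05, all of them lower in the knockout. Of all 45037 probe sets 3943 were then below 0.05, and 20.3% of these were higher in the knockout. Neto1 and Neto2 encode the auxiliary subunits that slow the gating of kainate receptors. Neto2 read 2808.7, 2767.9, 2424.7 and 2234.5 in the knockouts and 2419.9 and 2584.7 in the wild types, with overlapping groups. Its log2 fold change was 0.026, with 0.056 after quantile normalization and -0.19 after median centring. Neto1's brightest probe set, 1441815_at, read 2022.9, 3299, 2070.6 and 1991.3 against 2675.6 and 2017.2. Knockout 2 and wild type 1 were its highest arrays, the pair that was highest for Grik4 and Grik5, and the log2 fold change was -0.020. A second Neto1 probe set, 1456283_at, had the same pair on top, at 2407.1 and 2365 against 1385.8 to 1510.4 on the rest. On the third, 1425132_at, knockouts read 2429, 2869.2, 2055.4 and 2030.2 and wild types 1501.6 and 1728.7, without overlap, for a log2 fold change of 0.51 ± 0.165 (SE; limma unadjusted p = 0.0111, adjusted p = 0.738).

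Cerebellins are the secreted ligands that bridge delta receptors and neurexins. Cbln1, made chiefly by cerebellar granule cells, read 6333.2, 584.3, 3817.2 and 6271.3 in the knockouts and 9790.5 and 7393.7 in the wild types. All knockouts were below the wild types, and knockout 2, the mouse with little cerebellar signal, was far below the next. The log2 fold change was -1.44 with all arrays, -0.67 without knockout 2 and -0.47 without both knockout 2 and wild type 1 (limma adjusted p = 0.744 with all arrays). Of its other probe sets, 1423286_at did not overlap either, at -1.34, while on 1423288_s_at, at -0.99, knockouts 1 and 4 read 3187.6 and 3483.5 and wild type 2 3099.3. In bulk tissue fewer cells of a type and less RNA per cell cannot be told apart. Cbln3, also of granule cells, was 77.8 on knockout 2 and 5210 to 9322 on the other arrays, whereas the forebrain members Cbln2 and Cbln4 lay between 980.6 and 1549 and between 1091 and 1457 on all arrays.

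Further partners whose groups did not overlap were higher in the knockout without passing the test. By the brightest probe set 2 of the 21 partners were higher without overlap and 1 was lower. Of all 45037 probe sets 11.3% were higher and 4.81% lower without overlap. Pick1, a PDZ scaffold that binds kainate and AMPA receptor tails, read 1394.9, 1218.9, 1732.1 and 1113.9 against 972.6 and 991.7. Its log2 fold change was 0.44 ± 0.18 (SE; limma unadjusted p = 0.0398, adjusted p = 0.738), 0.44 after quantile normalization and 0.22 after median centring. C1ql3, a secreted C1q-like protein that recruits kainate receptors at mossy fibre synapses, read 4666.1, 5593.1, 4491.5 and 3991.6 against 3928.7 and 3954.6. The gap between the groups was 37 signal units, and the log2 fold change of 0.24 was 0.29 after quantile normalization and 0.022 after median centring. Another C1ql3 probe set, 1425175_at, was -0.047, and the third, 1425176_at, was 0.40 with overlapping groups. Other probe sets of Nrxn3, 1439629_at at 0.64, and Grip1, 1421350_a_at at 0.54, were also higher without overlap. The brightest probe sets of these genes overlapped, at -0.032 and 0.25.

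By the brightest probe set the AMPA and NMDA receptor genes had log2 fold changes from -0.38 to 0.79, and the 6 members from -0.24 to 0.63. Of the 11 listed genes, 10 had a probe set with 1 symbol, and Grin1 had none. The knockout was above wild type for 6 and below it for 4. By the brightest probe set none passed in limma (0 of 10), and the median log2 fold change was 0.048. An unadjusted limma p below 0.05 was found for 1 of 10, where 6.76% of all probe sets had one. Groups did not overlap on the brightest probe set of 2 of the 10 genes, both higher in the knockout, where 11.3% of all probe sets were higher without overlap. Other probe sets of Gria3, 1420563_at at 0.75, and Grin2d, 1421393_at at 1.33, were higher in the knockout without overlap. The brightest probe sets of these genes overlapped, at -0.10 and 0.073. These other probe sets are named for their lack of overlap out of 22 for the 10 genes. Grin2b, the NMDA receptor subunit GluN2B, read 2081.1, 3038.5, 2648.4 and 2461.3 in the knockouts and 1243.6 and 1695.5 in the wild types on its brightest probe set, without overlap. Its log2 fold change was 0.78 ± 0.18 (SE; limma unadjusted p = 0.00141, adjusted p = 0.738), and 0.57 without wild type 1, but another bright Grin2b probe set, 1442370_at, was -0.0081. Grin2a, at 134.5, 182.2, 142 and 145.6 against 26.6 and 126.3, also did not overlap, and its log2 fold change of 0.79 was 0.18 without wild type 1. As for Grik1, wild type 1 held the lowest value of both genes.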

How the data were processed

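The authors deposited linear signal intensity values, made with GCOS 1.3 per the submitters' processing notes. No source used here says how probes were summarised, called as detected or scaled. Trimmed by 2% at each end, the deposited intensity values averaged 1000.0 on every array, and all 45101 probe sets were above 0. Without 64 Affymetrix controls, 45037 were analysed: 34945 had 1 symbol in the platform annotation, 932 several and 9160 none.

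Values were log2(signal + 49.6), the offset being the 20th percentile of the table. The contrast of 4 knockout with 2 wild-type arrays was fitted over all 45037 with lmFit and eBayes with an intensity trend (limma 3.58.1, R 4.3.3). The fit had 4 residual and 5.91 prior degrees of freedom. A run on simulated data with independent noise checked only the mean estimate of planted fold changes, not missed or false calls. Exact permutation tests used the 15 splits, with 0.0667 as the smallest p. Figures were drawn with matplotlib 3.10.9 in Python 3.11.15. The number of arrays limits the precision. Each array was 1 mouse, so p-values reflect differences among mice and among arrays alike.

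Named genes were the 6 members, Neto1, Neto2, Cbln1 and listed partners or receptors with an unadjusted p below 0.05 or no overlap, and for members spanning 1 log2 unit the 3 nearest genes. Cbln2, Cbln3 and Cbln4 and second probe sets were added after their values were seen. Listed genes without a probe set of 1 symbol were not analysed here. The members and lists were chosen with earlier results of these data known. Alternatives were quantile normalization, median centring, offsets 4 times larger and 0.25 times as large, a filter leaving out the 40% dimmest probe sets, no intensity trend, and arrays left out.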

Additional observations from a re-analysis of the deposited data

Results flagged for a closer look

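Among 20 probe sets examined for a knockout array far from the other 3, 4 were picked out, where chance picks out about 1 group in 20. On Grik1's brighter probe set knockout 1 read 939 against 681.4 to 703 in the other knockouts. On Grik2's dimmer probe set knockout 3 read 166.5 against 18.8 to 39.8, the latter all below the added offset. Knockout 2 was the high array for Grik5, at 1152.6 against 583.6 to 676.4, and for Neto1, at 3299 against 1991.3 to 2070.6. Groups of 2 wild types could not be examined in this way.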

How the results depend on the processing

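No paired analysis was possible because the labels number the mice individually and share no replicate number between the groups. Over all probe sets 0 passed in limma under each alternative, except without wild type 2, where 171 passed and 146 of them were higher, so with 1 array left out the count ranged from 0 to 171. With 1 array left out the counts for members and for partners ranged from 0 to 0. Both other scalings keep the order of probe sets within an array, so the order of signals was not tested by them. After quantile normalization Grik2's brighter probe set was -0.013 and Neto1 0.011. After median centring Grik2's brighter probe set was -0.21, Grik3's dimmer one -0.048 and Neto2 -0.19. Without both knockout 2 and wild type 1 Grik2's dimmer probe set was 0.47, Grik5 0.050, Neto1 0.0075 and Neto2 -0.060. With 1 array left out Grik2's brighter probe set ranged from -0.083 to 0.085, its dimmer one from -0.87 to 0.27, Grik4 from -0.43 to 0.019, Grik5 from -0.62 to 0.25, Neto1 from -0.22 to 0.18 and Neto2 from -0.020 to 0.088. The cause was not tested. Other offsets, no intensity trend and the dim filter, which dropped 3 of the 10 receptor probe sets, reversed none of the 17 named values they could be computed for. With a single wild type left, its spread is assumed to be that of the other group. Grik1's brighter probe set had an unadjusted limma p of 0.0293 in the deposited scaling with all arrays. This p was 0.0389 after quantile normalization, 0.107 after median centring and 0.0764 without knockout 1. Grik3's brighter probe set had an unadjusted limma p of 0.0178 without knockout 4. The 3 that the dim filter dropped read below the offset on 1 or more arrays, where the offset sets the size of a fold change.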
